A study of Mus musculus with 21 samples.

Results

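Genes of the mitochondrial ribosome and of mitochondrial protein import were examined in the cortex of sham mice and of mice exposed to high-frequency head impact (HF-HI), 24 h after the final impact. Members were the genes whose symbol in the GENCODE annotation begins with Mrpl, Mrps, Timm or Tomm followed by a digit, or with Chchd, together with Pmpca and Pmpcb. These were 22 of the 5544 genes analyzed: 3 Mrpl, 2 Mrps, 5 Timm, 7 Tomm and 3 Chchd genes and both Pmpc genes. The rule itself uses symbols and no measured value. The same symbols cover 120 annotated genes, 113 of them protein-coding, and the other 98 were not analyzed here. All mice were 12-week-old male C57BL/6 according to the labels. HF-HI mice received impacts under isoflurane on successive days, and sham mice had the same handling and isoflurane without impacts. Ribosome-depleted total RNA of whole cortex gave 10 sham and 11 HF-HI libraries, a library for each mouse.

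Mitochondria make only a handful of proteins themselves, on a ribosome of their own whose protein subunits are encoded in the nucleus. Nearly all other mitochondrial proteins are made in the cytosol and imported. Receptors and a channel of the outer membrane (the TOM complex) take up the precursors, inner membrane translocases (TIM complexes) pass them on, and a processing peptidase in the matrix cuts off their targeting sequence. CHCHD proteins carry paired cysteine motifs and reside mostly in the intermembrane space. Cortical neurons depend on this machinery because they draw most of their energy from oxidative phosphorylation.

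Values are variance-stabilized, normalized for library depth by the authors and on a log2 scale, so 1 unit is close to a doubling for well-covered genes and understates it for genes with few reads. Read totals are unknown. The depth of each library against the median one, taken from the spacing of values in each library, ranged from 0.579 to 1.26 in sham and from 0.547 to 1.63 in HF-HI. Its group medians were 0.864 in sham and 1.17 in HF-HI. The members lay low in the table: their median value was 8.86 against 9.71 over all genes, and 19 of the 22 were under the latter. The dependence of a library's values on exonic GC content also moved with the groups. Its slope, per 10% GC, ranged from -0.23 to 0.0058 in sham and from -0.039 to 0.16 in HF-HI, so differences after removal of each library's GC trend are given for the members and genes named with statistics.

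Most of the members were lower in HF-HI cortex. Tested with limma's moderated statistic, Benjamini-Hochberg adjusted over all genes, 14 of the 22 were lower at an adjusted p under 0.05, where 33.6% of all genes were lower. Another 3 were higher, Chchd10, Tomm40 and Tomm34, where 32.6% of all genes were higher, and 5 did not pass the test. The median log2 difference of the members was -0.20, against -0.0086 over all genes. Differences of the lower members were modest, from -0.33 to -0.094, beside a median within-group SD of 0.103 for these genes. The groups were fully separate for 4 members, Tomm20, Timm8b, Tomm40 and Chchd10, where 13.5% of all genes were separate. Centering each library on its median shifted all differences by 0.052 and moved the share of higher genes among all calls from 49.3% to 37.9%, and no member changed direction. After removal of the GC trends, 13 members were lower (59.1%) and 1 was higher (4.5%), with a median of -0.15, where 31.0% of all genes were lower and 29.2% higher. With a further removal of trends on exonic length, 7 were lower (31.8%) and 3 higher (13.6%), with a median of -0.064. In that fit 30.1% of all genes were lower and 28.6% higher, so the share of lower members was near that of all genes.

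**Figure D1:**
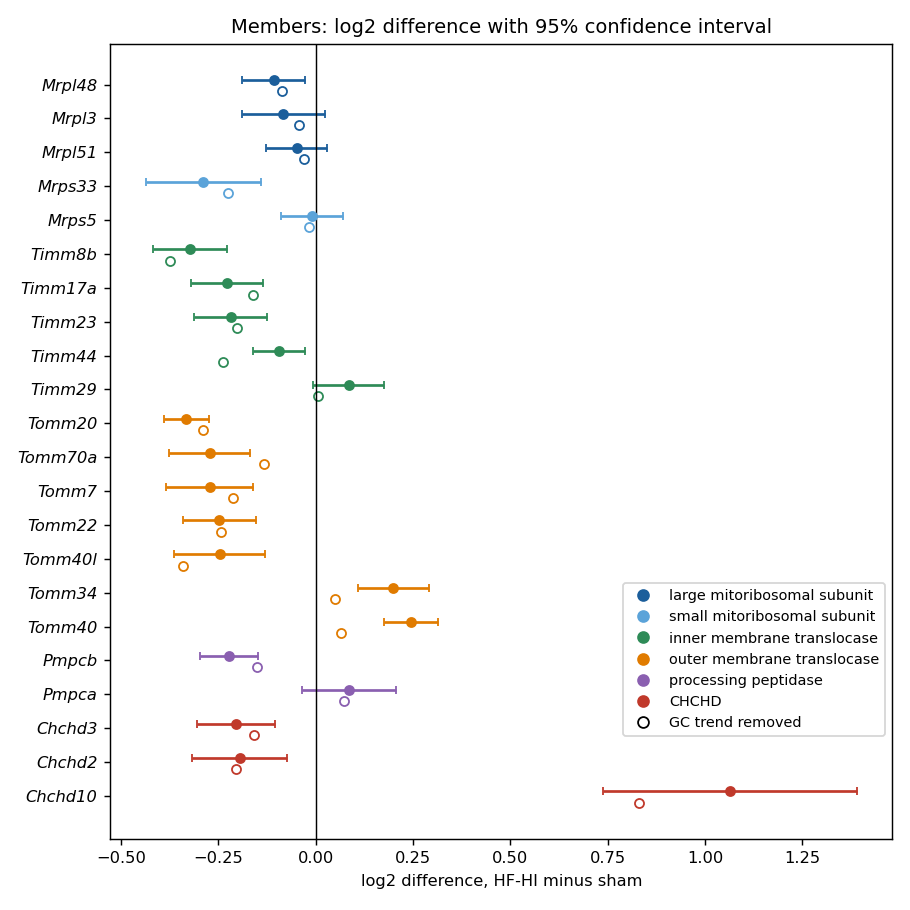
Log2 difference between HF-HI and sham cortex for each of the 22 members (horizontal axis), colored by class; filled circles with bars are the deposited values with 95% confidence intervals, and open circles are the differences once each library's GC trend was removed. Most members lie left of 0 between -0.33 and -0.094, and Chchd10 stands apart at 1.06.

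All 7 outer membrane translocase genes passed the test, 5 lower and 2 higher. Of all genes 33.6% were lower and 32.6% higher, and a class of 7 is too small to be set against these shares. Tomm20 (ENSMUSG00000093904, chromosome 8 from 126930667 to 126945844 of GRCm38) encodes a receptor for precursors with a cleavable presequence. Its lowest, median and highest values were 12.61, 12.70 and 12.79 in sham and 12.29, 12.37 and 12.47 in HF-HI. Every HF-HI mouse was thus below every sham mouse. The means were 12.70 ± 0.0582 (SD, n = 10) and 12.37 ± 0.0541 (SD, n = 11), giving -0.33 on the log2 scale with a standard error of 0.0282 (limma, adjusted p = 2.19e-09). It was -0.29 with the GC trend removed and -0.28 with both trends removed, past the threshold in both. Per kilobase of exon, on the log2 scale, Tomm20 also had the highest level of all members, 10.2.

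Tomm70a and Tomm22, the other receptors of the complex, fell as well. Tomm70a (chromosome 16 from 57121703 to 57156705), which receives carrier precursors delivered by cytosolic chaperones, ran from 11.88 through a median of 12.01 to 12.06 in sham and from 11.38 through 11.78 to 11.90 in HF-HI. The HF-HI mice spread more widely, and 10 of the 11 were below every sham mouse. Its log2 difference was -0.27 with a standard error of 0.0503 (limma, adjusted p = 6.17e-05) and -0.13 with the GC trend removed (adjusted p = 0.0187). Tomm22 (chromosome 15 from 79670861 to 79673400), the central receptor that binds the channel, ran from 8.68 through 8.92 to 9.04 in sham and from 8.47 through 8.68 to 8.77 in HF-HI. Of the HF-HI mice, 6 were below every sham mouse and all 11 below the sham median. Its log2 difference was -0.25 with a standard error of 0.0452 (adjusted p = 5.43e-05) and -0.24 with the GC trend removed. The small subunit gene Tomm7 had a similar difference, -0.27 with a standard error of 0.0542 (adjusted p = 1.43e-04) and -0.21 without the GC trend, with 9 HF-HI mice below every sham mouse. With both trends removed, Tomm22 was at -0.060 and Tomm7 at 0.017 (adjusted p = 0.209 and 0.750), while Tomm70a stayed past the threshold at -0.17.

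The channel gene Tomm40 went the other way. Tomm40 (ENSMUSG00000002984, chromosome 7 from 19701313 to 19715438), which encodes the pore of the TOM complex, ran from 8.43 through a median of 8.55 to 8.71 in sham and from 8.75 through 8.79 to 8.84 in HF-HI. Every HF-HI mouse was above every sham mouse, and the HF-HI values were tight. The means were 8.55 ± 0.0949 (SD, n = 10) and 8.79 ± 0.0286 (SD, n = 11), giving 0.25 on the log2 scale with a standard error of 0.0336 (limma, adjusted p = 1.48e-06). Removing the GC trend left 0.066 (adjusted p = 0.0807), so the call did not hold there, and removing both trends gave 0.091 (adjusted p = 0.0155). Its paralog Tomm40l (chromosome 1 from 171216011 to 171222514) had a log2 difference of -0.25 with a standard error of 0.0568 (adjusted p = 6.23e-04), and 9 HF-HI mice were below every sham mouse. That fall was -0.34 with the GC trend removed. Tomm34, a cytosolic co-chaperone named for the complex, rose by 0.20 with a standard error of 0.0446 (adjusted p = 4.48e-04), which became 0.050 without the GC trend (adjusted p = 0.294) and 0.12 without both (adjusted p = 0.0108).

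**Figure D2:**
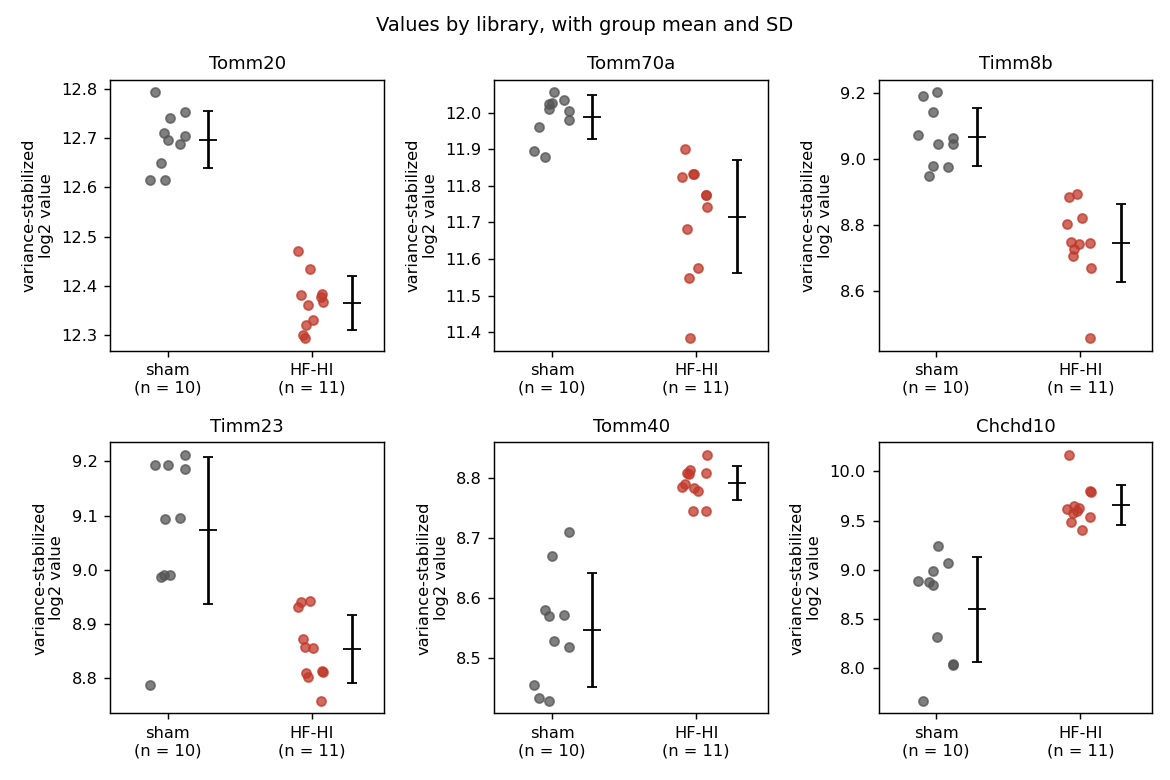
Variance-stabilized log2 values (vertical axis, each panel with its own range) of 6 members in every sham (gray, n = 10) and HF-HI (red, n = 11) library, with the mean and SD of each group. HF-HI libraries lie below all sham libraries for Tomm20 and Timm8b and above them for Tomm40 and Chchd10, and sham libraries of Chchd10 spread from 7.66 to 9.25.

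Among the inner membrane translocase genes, 4 of 5 were lower and none was higher. This class is also too small to be set against the 33.6% lower and 32.6% higher of all genes. The largest difference was that of Timm8b (ENSMUSG00000039016, chromosome 9 from 50603910 to 50605320), a small chaperone that escorts hydrophobic precursors across the intermembrane space. Timm8b ran from 8.95 through a median of 9.06 to 9.20 in sham and from 8.46 through 8.74 to 8.89 in HF-HI. The groups did not overlap. Means were 9.07 ± 0.0888 (SD, n = 10) and 8.75 ± 0.119 (SD, n = 11), giving -0.32 on the log2 scale with a standard error of 0.0460 (limma, adjusted p = 2.67e-06). It was -0.37 with the GC trend removed, and -0.082 (adjusted p = 0.0676) once length was also taken out. At 518 bases of exon this is the shortest member.

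Timm23 and Timm17a, which together form the core of the presequence translocase, fell by 0.22 and 0.23 on the log2 scale (limma, adjusted p = 2.07e-04 and 1.36e-04), and they were at -0.20 and -0.16 without the GC trend. Timm17a ran from 8.66 through 8.76 to 8.86 in sham and from 8.25 through 8.57 to 8.69 in HF-HI, with 10 HF-HI mice below every sham mouse. Timm23 ran from 8.79 through 9.09 to 9.21 in sham and from 8.76 through 8.86 to 8.94 in HF-HI. Its overlap came from sham replicate 10 at 8.79, with the other sham mice at 8.99 or above, and its difference without that mouse was -0.25. Timm44, which tethers the matrix import motor to the translocase, had a smaller difference of -0.094 with a standard error of 0.0320 (adjusted p = 0.0128), which was -0.24 with the GC trend removed. Timm17a and Timm44 stayed past the threshold with both trends removed, at -0.19 and -0.18, and Timm23 did not, at -0.032 (adjusted p = 0.488). Timm29, a subunit of the separate translocase for carrier proteins, was not past the threshold at 0.085 (adjusted p = 0.0903) and at 0.0068 without the GC trend.

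The processing peptidase is a heterodimer of a catalytic subunit, encoded by Pmpcb, and a substrate-binding subunit, encoded by Pmpca. Pmpcb (chromosome 5 from 21737141 to 21757152) ran from 8.75 through a median of 8.95 to 9.09 in sham and from 8.63 through 8.70 to 8.79 in HF-HI. All but 1 of the 11 HF-HI mice were below every sham mouse. Its log2 difference was -0.22 with a standard error of 0.0364 (limma, adjusted p = 1.41e-05), and it was -0.15 and past the threshold both without the GC trend and without both trends. Pmpca (chromosome 2 from 26389339 to 26397122) ran from 9.37 through 9.65 to 9.88 in sham and from 9.48 through 9.73 to 9.91 in HF-HI. It was not past the threshold, with a log2 difference of 0.087 (95% confidence interval -0.034 to 0.21, adjusted p = 0.191) and 0.073 without the GC trend.

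Of the mitochondrial ribosome, 5 of the 83 genes annotated under its symbols were tested, and 2 of the 5 were lower and none was higher. Over all genes 33.6% were lower and 32.6% higher, so these counts give no result about the ribosome as a class. Mrps33 of the small subunit had the largest difference. It ran from 8.73 through a median of 9.06 to 9.40 in sham and from 8.62 through 8.77 to 9.03 in HF-HI, and all 11 HF-HI mice were below the sham median. Its log2 difference was -0.29 with a standard error of 0.0715 (limma, adjusted p = 0.00121), -0.22 with the GC trend removed and -0.043 (adjusted p = 0.572) with both removed. Mrpl48 of the large subunit was lower by a small margin (-0.11 with a standard error of 0.0394, adjusted p = 0.0196), which missed the threshold without the GC trend (-0.087, adjusted p = 0.0603) and passed without both trends (-0.12, adjusted p = 0.0102). Mrpl3, Mrpl51 and Mrps5 were not past it, at -0.083, -0.048 and -0.0093 (adjusted p = 0.160, 0.264 and 0.842), and at -0.043, -0.031 and -0.016 without the GC trend. Centering the libraries on their medians brought Mrpl3 and Mrpl51 past it, at -0.13 and -0.10, and a difference between this class and the import genes was not tested.

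Chchd10 had the largest difference of all members and ranked 25 among the 5544 genes by absolute size. Chchd10 (ENSMUSG00000049422, chromosome 10 from 75933130 to 75937747) encodes an intermembrane space protein whose human mutations cause amyotrophic lateral sclerosis and frontotemporal dementia. It ran from 7.66 through a median of 8.86 to 9.25 in sham and from 9.41 through 9.61 to 10.17 in HF-HI. All HF-HI mice were above all sham mice, but the sham mice were far from uniform: replicates 1 to 4 lay at 8.31, 8.03, 7.66 and 8.04, and the other 6 between 8.84 and 9.25. The means were 8.60 ± 0.538 (SD, n = 10) and 9.66 ± 0.205 (SD, n = 11), giving 1.06 on the log2 scale with a standard error of 0.158 (limma, adjusted p = 4.38e-06). The size of this difference rests in part on those 4 sham libraries, and no label sets them apart. The lowest HF-HI value, 9.41, was close to the highest sham value, 9.25. The difference was 0.83 with the GC trend removed and 1.02 with both trends removed, past the threshold in both.

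The other CHCHD genes fell. Chchd2, the paralog of Chchd10 and itself a gene of familial Parkinson's disease in humans, ran from 10.28 through a median of 10.70 to 10.94 in sham and from 10.30 through 10.50 to 10.61 in HF-HI. The ranges overlapped, although all 11 HF-HI mice were below the sham median. Its log2 difference was -0.19 with a standard error of 0.0590 (limma, adjusted p = 0.00589) and -0.20 with the GC trend removed. Chchd3, a subunit of the MICOS complex that shapes the cristae, ran from 8.78 through 8.91 to 9.12 in sham and from 8.62 through 8.72 to 8.94 in HF-HI. Its log2 difference was -0.20 with a standard error of 0.0481 (adjusted p = 7.65e-04) and -0.16 without the GC trend, and 9 HF-HI mice were below every sham mouse. With both trends removed neither Chchd2 nor Chchd3 was past the threshold, at -0.079 each (adjusted p = 0.222 and 0.0726).

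On a plain log2 scale, the difference of a pair of genes within a library does not depend on how that library was scaled. With variance-stabilized values this holds only approximately, and least for genes with few reads. The difference is described, with no test, for 3 pairs of paralogs or partners that were chosen because their members had moved apart. Chchd10 minus Chchd2 averaged -2.09 ± 0.603 (SD, n = 10) in the sham mice and -0.83 ± 0.199 (SD, n = 11) in the HF-HI mice, with ranges of -3.10 to -1.39 and -1.02 to -0.35. Tomm40 minus Tomm40l averaged -0.11 ± 0.118 (SD, n = 10) in the sham mice and 0.38 ± 0.162 (SD, n = 11) in the HF-HI mice. Tomm40 was the lower of the pair in 8 of the 10 sham mice and the higher in every HF-HI mouse. Pmpca minus Pmpcb averaged 0.70 ± 0.166 (SD, n = 10) in the sham mice and 1.01 ± 0.125 (SD, n = 11) in the HF-HI mice, with overlapping ranges of 0.40 to 0.92 and 0.78 to 1.28. With the GC trends removed the shifts were 1.03, 0.41 and 0.22 in place of 1.26, 0.49 and 0.31.

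**Figure D3:**
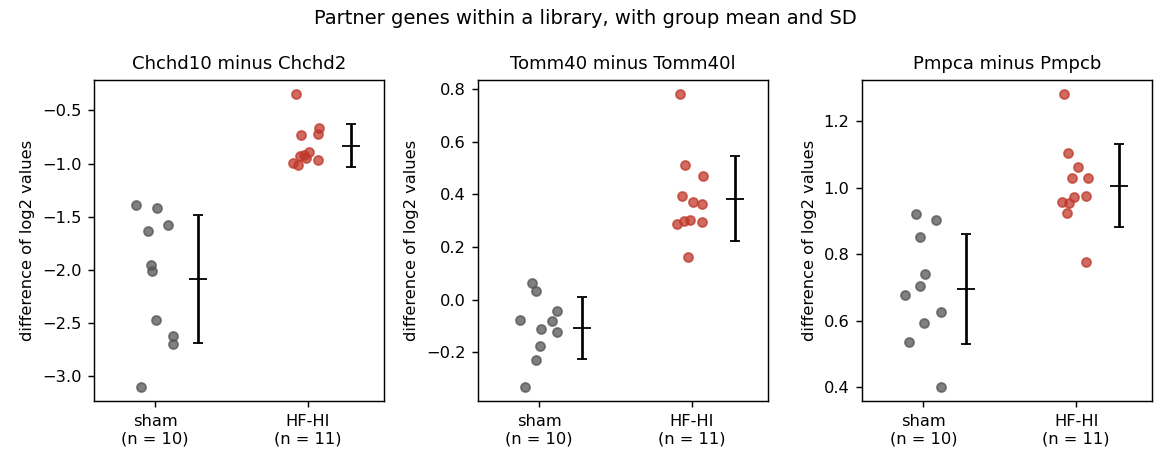
Difference of the log2 values of 2 genes within each library (vertical axis) for Chchd10 and Chchd2, Tomm40 and Tomm40l, and Pmpca and Pmpcb, in sham (gray, n = 10) and HF-HI (red, n = 11), with the mean and SD of each group. The groups are separate for the first 2 pairs, and Pmpca minus Pmpcb overlaps between 0.78 and 0.92.

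The direction of the members moved with their base composition, as did that of all genes, and the part of base composition in the differences was not tested beyond the removal of the trends. Exonic GC content was 54.5% to 58.0% in the 3 higher members and 38.8% to 54.3% in the 14 lower ones. Across the 22 members, which share the same libraries, Spearman's rho between log2 difference and GC content was 0.626, against 0.480 over all genes with a GC value. Timm44, Tomm40l and Timm8b were lower at GC contents of 54.3%, 52.1% and 49.8%, above the 47.6% median of all genes. Once the GC trend was removed their differences were -0.24, -0.34 and -0.37. Removing a trend that rises with GC content lowers the differences of GC-rich genes by construction, so these shifts are no separate result. Chchd2, lower at 47.9%, changed little, from -0.19 to -0.20. With both trends removed Timm8b was at -0.082 (limma, adjusted p = 0.0676). Members had a median exonic length of 3854 bases against 5979 over all genes.

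**Figure D4:**
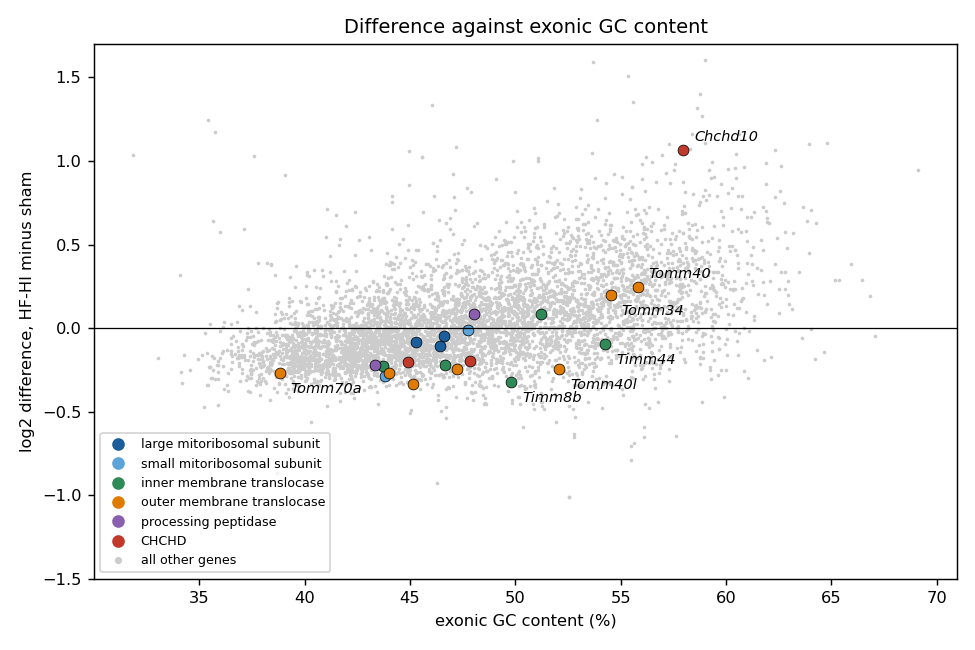
Log2 difference between HF-HI and sham (vertical axis) against exonic GC content in percent (horizontal axis) for 5539 genes (gray; 4 lie outside the axis) and the 22 members, colored by class. The higher members Chchd10, Tomm40 and Tomm34 lie at the GC-rich end, and the lower members Timm8b, Tomm40l and Timm44 lie at 49.8%, 52.1% and 54.3%.

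The sequences before the transcription starts are shown because many members fell together. RefSeq promoters of GRCm38, from 250 bases before to 50 after a start, were matched for 19 of the 22 genes, 23 promoters in all. They were searched on both strands for ccggaag, letters bound by ETS factors such as GABPA, a regulator of nuclear genes for mitochondrial proteins. It was found in 14 of the 23 promoters (60.9%), which belong to 13 genes. It occurs in 15.3% of the promoters of the genes in the table and in 8.86% of all 32851 promoters. Of the 13 genes, 8 were lower, 1 was higher (Tomm34) and 4 did not pass the test, where 63.6% of all 22 members were lower and 13.6% higher. A link between the letters and the differences was not tested. A fixed form of the NRF1 motif, with no variant letters allowed, and the letters aagatggc of YY1 were found in 0 of the 23. They occur in 2.02% and 4.33% of the promoters of the genes in the table. Variant forms of the NRF1 motif and of the YY1 letters were not searched for, so the counts do not show that sites of either factor are absent. All these counts are matches of letters and not mapped binding sites. Below are the promoters of Tomm22, with the most matches, of Tomm20, which fell most and holds none, and of Tomm40 and Chchd10, which rose and hold none. Matches are in capitals. In Tomm22, 2 of the 3 overlap on opposite strands 47 bases before the start.
Tomm22 (chr15:79670618-79670917, plus strand): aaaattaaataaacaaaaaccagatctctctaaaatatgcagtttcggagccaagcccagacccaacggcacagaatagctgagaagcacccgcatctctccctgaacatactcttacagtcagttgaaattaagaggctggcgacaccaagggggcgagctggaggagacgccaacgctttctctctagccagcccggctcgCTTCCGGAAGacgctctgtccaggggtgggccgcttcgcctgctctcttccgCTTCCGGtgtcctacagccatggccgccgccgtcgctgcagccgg
Tomm20 (chr8:126945872-126946171, minus strand): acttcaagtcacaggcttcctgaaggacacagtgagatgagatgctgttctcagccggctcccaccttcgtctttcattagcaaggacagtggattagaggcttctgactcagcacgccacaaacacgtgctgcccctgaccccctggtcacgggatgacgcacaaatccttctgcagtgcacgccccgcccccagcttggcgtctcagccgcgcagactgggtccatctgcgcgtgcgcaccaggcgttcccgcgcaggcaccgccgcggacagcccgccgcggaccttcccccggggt
Tomm40 (chr7:19715380-19715679, minus strand): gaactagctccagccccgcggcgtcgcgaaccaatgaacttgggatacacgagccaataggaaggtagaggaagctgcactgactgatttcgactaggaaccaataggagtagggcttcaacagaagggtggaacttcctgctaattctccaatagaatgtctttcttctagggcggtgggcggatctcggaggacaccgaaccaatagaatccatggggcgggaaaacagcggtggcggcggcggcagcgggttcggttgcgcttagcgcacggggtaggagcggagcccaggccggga
Chchd10 (chr10:75932880-75933179, plus strand): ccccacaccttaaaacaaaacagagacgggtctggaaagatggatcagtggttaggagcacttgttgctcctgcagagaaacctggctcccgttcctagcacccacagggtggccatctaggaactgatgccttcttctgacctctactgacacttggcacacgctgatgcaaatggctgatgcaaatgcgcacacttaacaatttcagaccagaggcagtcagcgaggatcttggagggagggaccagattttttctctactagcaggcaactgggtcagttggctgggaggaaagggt

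Other genes of mitochondrial translation, import and biogenesis were taken from a list of 83 symbols, 26 of which were tested. By limma's moderated test 12 were lower (46.2%) and 5 higher (19.2%), against 33.6% and 32.6% of all genes, and their median log2 difference was -0.075. The counts per group that follow are too small to be set against these shares. Of 4 listed ribosomal subunits with other symbols the 3 tested were lower, with log2 differences of -0.28 for Ptcd3, -0.27 for Aurkaip1 and -0.19 for Dap3 (adjusted p = 6.19e-06, 2.27e-05 and 1.87e-04) and of -0.17, -0.47 and -0.27 without the GC trend. All 3 belonged to the list, and Aurkaip1 and Dap3 are named beyond the rule for named genes, after their values were seen. For Aurkaip1 the groups did not overlap. Of the translation factors 3 of 4 were lower, and the call of Gfm2 was lost without the GC trend (-0.042, adjusted p = 0.195). Of the import motor and accessory genes 4 of 7 were lower and 1 higher. Of the proteases and their partners 2 of 6 were lower and 3 higher, and without the GC trend the higher calls of Lonp1 (-0.046, adjusted p = 0.292) and Phb2 (0.063, adjusted p = 0.238) were lost, the former with a change of sign. Of the MICOS genes 1 of 2 was higher, and none of the 4 regulators of transcription and biogenesis passed. None of 13 ribosome assembly genes was analyzed here. Guf1, a translation factor of the mitochondrial ribosome, averaged 9.89 ± 0.0543 (SD, n = 10) in the sham mice and 9.51 ± 0.0555 (SD, n = 11) in the HF-HI mice, without overlap, a log2 difference of -0.38 (adjusted p = 2.97e-10) that was -0.24 without the GC trend. The inner membrane protease gene Yme1l1 fell by 0.27 (adjusted p = 4.22e-07), and its difference without the GC trend was -0.12. The largest difference of this list was an increase, that of Minos1. Minos1, a core MICOS subunit, averaged 8.17 ± 0.279 (SD, n = 10) in the sham mice and 8.76 ± 0.289 (SD, n = 11) in the HF-HI mice, a log2 difference of 0.59 (adjusted p = 9.84e-05) that was 0.49 without the GC trend. Hspa9, the import motor chaperone, was at 0.047 (adjusted p = 0.537) and at 0.11 without the GC trend, and the chaperonin gene Hspd1 was higher by 0.13 (adjusted p = 0.0393), a call lost without the GC trend (0.10, adjusted p = 0.117). The regulators Gabpa and Ppargc1a were not past the threshold at 0.078 and 0.10 (adjusted p = 0.139 and 0.0708), and passed without the GC trend, at 0.19 and 0.21 (adjusted p = 4.77e-04 and 7.19e-04). Gabpb2, another of the 4 regulators and named beyond the rule, was at 0.061 (adjusted p = 0.121). It also passed without the GC trend, at 0.11 (adjusted p = 0.0045).

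Mitochondria occur in all cell types of the cortex, and in whole tissue fewer cells of a type cannot be told apart from less RNA per cell. Of 8 neuron markers, 6 were higher and 0 lower, where 32.6% of all genes were higher and 33.6% lower. Their summed log2 level ran from 16.00 to 16.18 in sham and from 16.19 to 16.38 in HF-HI, so the groups did not overlap. For astrocyte markers 3 of 7 tested were higher and 1 lower, with overlapping sums of 16.01 to 16.14 in sham and 16.06 to 16.20 in HF-HI. For oligodendrocyte markers 2 of 8 were higher and 0 lower, with sums of 15.3 to 16.0 in both groups. Only 2 of 8 microglia markers and 2 of 8 endothelial markers were tested, with sums of 10.5 to 10.7 and 10.4 to 10.6 for the former and of 9.79 to 10.1 and 10.0002 to 10.3 for the latter. The GC trend was not removed from these marker values. The part of cell composition in the members' differences was not tested.

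The identity of the reads also sets a limit for some members. For 9 of the 22, another annotated gene shares a stretch of at least 200 bases at 95% identity or more on the same strand. Timm23 has 6 such genes, among them the protein-coding Gm10273, Tomm20 has 4 processed pseudogenes and Chchd2 has 3 such genes, so their values may hold or lack reads of the copies. The locus of Chchd2 lies within that of the protein-coding Phkg1 on the same strand, over 6315 bases. On the opposite strand, Mrpl3 overlaps the antisense gene Gm47106 over 15084 bases, Tomm40l overlaps Nr1i3 over 4691 and Chchd10 overlaps Mmp11 over 3367, and the strand setting of the counting is not given in the sources used here.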

How the data were processed

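Cortical RNA of 10 sham mice and 11 HF-HI mice was made into stranded, ribosome-depleted libraries, which the authors aligned to mm10 with STAR, counted per transcript with eXpress and normalized with DESeq2. The deposited values are variance-stabilized, on a log2 scale, by Ensembl gene. The authors removed outliers among genes with low mean counts. The counts were not used here, so limma took the place of a count model. The annotation and the strand setting are not given in the sources used here. All 21 columns were matched to a library by name. The labels do not say whether mice shared a cage or a preparation, so p-values measure the spread between these libraries.

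Symbols, positions, exonic length and GC content came from GENCODE M21 (GRCm38, the assembly of mm10), with a symbol for 5541 and a GC content for 5539 genes. The groups were fitted with limma 3.58.1 under R 4.3.3 on all genes (lmFit, two-sided, eBayes with its variance prior following the mean) at an adjusted p under 0.05. The study's own threshold of 0.1 was an alternative. GC and length trends were removed within each library by lowess (span 0.3). Relative depth came from the spacing of unlogged values between 500 and 600. Other alternatives were a minimum difference of 0.25, a constant prior variance, a rank-sum test, median centering, quantile normalization, keeping only genes above the lower quartile of mean values, blocking on replicate number, and leaving out each library. A depth covariate and the 3 gene pairs were added after seeing the data. Deviations of same-numbered sham and HF-HI libraries had correlations of both signs (-0.31 to 0.364), so the numbers were not read as pairs. Libraries of unlike number were not compared in this way, so a shared batch of some pairs was not tested. The members and lists were chosen with earlier results of these data known. Full statistics are given, per class, for the 3 called members with the largest differences, for members without overlap and for a fixed set of core import genes, and in the other list for the 4 largest calls and 7 fixed genes. Of the fixed genes, Tufm, Tfam, Nrf1, Timm50, Chchd4 and Chchd6 were not analyzed here. Promoters are from RefSeq (GRCm38.p6).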

Additional observations from a re-analysis of the deposited data

Results flagged for a closer look

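Timm23 in sham replicate 10 was at 8.79, apart from the other 9 sham mice at 8.99 to 9.21, and its gap to the nearest of them was 0.469 of the group's range, above Dixon's critical value of 0.466. All 22 members were tested in this way in the 10 sham libraries, and chance alone picks out about 1 in 20 groups. The HF-HI group, with 11 libraries, was not tested. The log2 difference of Timm23 stayed between -0.25 and -0.20 with each library left out in turn, and it was past the threshold each time.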

How the results depend on the processing

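A minimum difference of 0.25 left 1 higher and 5 lower members, and 1 higher and 4 lower of the other pathway genes. Keeping only genes above the lower quartile of mean values removed 15 of the 22 members, with 4 lower ones left and a median of -0.11, and left 2 higher and 5 lower of the other pathway genes. The CHCHD median then turned to 0.43, since Chchd10 and Chchd2 alone remained. Removing the GC trend left 1 higher member, Chchd10, and also did so together with the replicate block. Removing the GC and length trends left 7 lower members (31.8%, near the 30.1% of all genes) with a median of -0.064, and medians of -0.041 for the small ribosomal subunit, -0.082 for the inner and -0.060 for the outer membrane translocases, and turned Mrpl51 to 0.0100 and Tomm7 to 0.017. Leaving out 1 library at a time gave 3 to 4 higher and 14 to 15 lower members, 4 to 6 higher and 11 to 13 lower pathway genes, and -0.023 to 0.0082 for Mrps5. Mrpl3 passed without sham replicate 2 (limma, adjusted p = 0.0442), and Timm29 without sham replicate 5 or 9 (adjusted p = 0.0404 and 0.0495). The replicate block gave 3 higher (13.6%) and 13 lower (59.1%) members, where 31.4% of all genes were higher and 31.7% lower. In that fit Mrpl48 was at -0.090 (limma, adjusted p = 0.0518) and Mrps5 turned to 0.00097. With relative depth as a covariate, 3 members were higher and 14 lower, with a median of -0.19. That fit gave 7 higher and 11 lower of the other pathway genes. The cause of these changes was not tested. Shares of all genes were not counted for the minimum difference, the quartile filter, the omitted libraries or the depth covariate. They were also not counted for the GC trend removed together with the replicate block. Counts under those settings therefore cannot be set against all genes. The values carry no read counts, so counting error could not be set beside the spread between mice.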
